A study of Mus musculus with 40 samples.

Results

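The liver transcriptome of WT mice was compared between day 21 and day 12 of purified control diet (PD) feeding. All libraries whose labels give the wild type and either of these days were taken, which were 5 libraries of day 12 and 5 of day 21, or 10 of the 40 libraries of the series. The series follows WT mice and mice lacking Nampt in hepatocytes (HNKO) over 3, 6, 12, and 21 days of PD. All mice were females on the C57BL/6JBomTac background. The WT mice were floxed littermates without the Cre transgene, and the HNKO mice carried floxed Nampt with Alb-Cre, which the albumin promoter drives in hepatocytes. Mice had eaten a fortified breeding chow since weaning and were randomized to the L-amino acid-defined PD at 9 weeks of age, so the WT groups share genotype, sex, background, and diet and differ in the length of feeding and by 9 days of age. The labels give 12 and 21 days as the age of the mice, which goes against the methods of the study. Part of the median lobe was fixed for histology, and the RNA came from the frozen remainder. No fast and no time of day is stated for this experiment.

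The labels do not say that each library is a separate mouse, and where libraries share a mouse the p-values measure technical spread. Total counts ranged from 21583443 to 64181492 per library over the 10 WT libraries, with library 21 of day 21 the deepest. Every pair of libraries within these groups differed by more than sampling noise, with a chi-square of at least 27.5 per gene over 20 pairs, so that no library was counted as another deposited again. This does not bear on whether libraries share a mouse. Library numbers pass through all 4 days from 1 to 21 and again from 22 to 41. Of day 12, libraries 14, 15, and 16 belong to the first run of numbers, and libraries 33 and 34 to the second. Of day 21, libraries 19, 20, and 21 belong to the first run, and libraries 39 and 41 to the second. No source used here says whether the runs were separate batches.

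3 libraries stood apart from their groups. An outlying library was counted where the gap to the nearest of the other 4 exceeded the critical share of 0.71 of the range in its group. Library 16 of day 12 stood apart in this way for 861 genes, or 4.24% of the tested genes, against 109 to 166 genes for the other 4 libraries of day 12. Of day 21, library 41 stood apart for 455 genes and library 39 for 354, against 113 to 185 for the other libraries. Library 16 was the extreme library for most circadian clock genes, and library 39 had the lowest mitochondrial rRNA. Library 16 is therefore left out beside each result that rests on it. Libraries 19 and 21 of day 21 stood apart together, with high skeletal muscle genes, and are given with the cell type markers.

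As background, the liver has its own circadian clock, and whole liver sampled at different hours of the day differs in many metabolic genes. Bmal1 (the gene Arntl), Clock, and Npas2 are transcriptional activators that bind E-boxes and drive the genes of their own repressors, the Per and Cry proteins. The nuclear receptors Rev-erb alpha and beta (Nr1d1 and Nr1d2) repress Arntl, Clock, Npas2, and Nfil3, and the PAR-bZIP factors Dbp, Tef, and Hlf compete with the repressor Nfil3 for D-boxes, so that genes of both arms peak at different hours.

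With all libraries, a single gene was called between the days by edgeR, a count that changed with the method and the samples. Of 55487 listed genes, 20297 passed the filter on low counts and were tested, and 1 had an adjusted p-value under 0.05 in edgeR's quasi-likelihood test, which is 0.00493% of the genes tested and is what "called" means here. It was Mindy4, higher at day 21. At an unadjusted p under 0.05 were 2522 genes, or 12.4%, of which 1139 (5.61%) were higher and 1383 (6.81%) lower at day 21. Groups that did not overlap in log2 CPM (counts scaled to library size, on the log2 scale, prior count 2) were found for 432 genes, or 2.13%, with 233 higher and 199 lower. The median standard error of a log2 fold change was 0.20, and the median size of the fold change was 0.17, so that the typical difference was smaller than its standard error. In whole liver, fewer cells of a type and less RNA per cell cannot be told apart in any of these differences.

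The count depended on which libraries entered. Without library 16 of day 12, 70 genes were called (0.345% of the genes tested), of which 43 were higher (0.212%) and 27 lower (0.133%) at day 21. In 59 of these 70 genes library 16 lay beyond the other 4 libraries of day 12 on the side of day 21, and in 18 it was the outlying library, so that leaving it out favours such calls. Calls, adjusted p-values, and counts of list members without library 16 are therefore descriptions here and support no difference. Without library 33 of day 12 there were 23 calls, and without library 41 of day 21 there were 18. Leaving out any of the other 7 libraries left 1 call. Mindy4 was among the calls in each of these fits. Without both libraries 19 and 21 of day 21, a choice made after seeing the data, 1 gene was called, Tmem267, which encodes a transmembrane protein (log2 fold change 2.15, edgeR adjusted p = 0.0476), and Mindy4 was not. With the run of library numbers as a covariate, 241 genes were called (1.19%), 73 of them higher and 168 lower, and 38 of the 70 genes called without library 16 were among them. DESeq2 called 92 genes on the same counts.

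**Figure D1:**
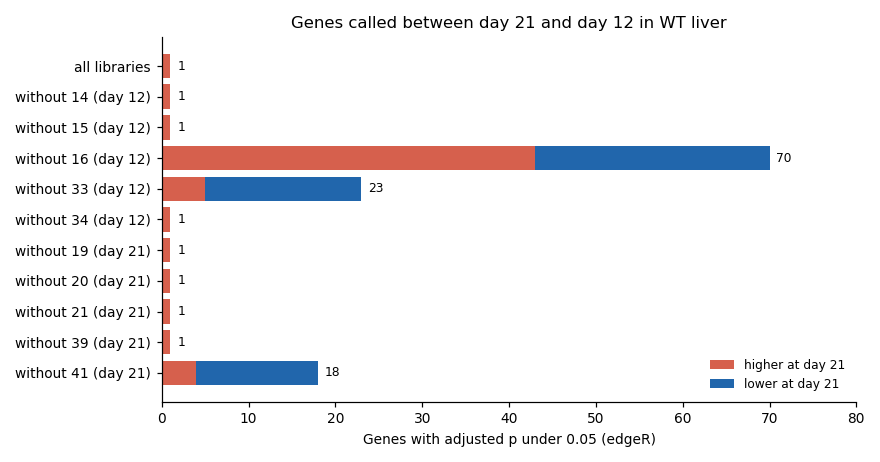
Bars show the number of genes with an adjusted p under 0.05 (horizontal axis, edgeR) between day 21 and day 12 in WT liver, split into genes higher and lower at day 21, with all libraries and with each WT library left out in turn (vertical axis). Leaving out library 16 gives 43 higher and 27 lower genes, libraries 33 and 41 give 23 and 18 calls, and each other fit gives 1.

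Mindy4, a member of the MINDY family of deubiquitinating enzymes, lies on the plus strand at chr6:55203383-55320222 of GRCm38. Its log2 CPM was 1.5001, 1.47, 2.10, 2.16, and 1.52 in libraries 14, 15, 16, 33, and 34 of day 12 and 2.92, 2.96, 2.91, 2.93, and 2.16 in libraries 19, 20, 21, 39, and 41 of day 21. The groups did not overlap, although library 41 lay barely above the highest library of day 12 and far from the other 4 libraries of day 21. The counts behind these values were 72 to 144 at day 12 and 112 to 488 at day 21. On the log2 scale day 21 exceeded day 12 by 1.04 (SE 0.15), or 2.05-fold, with an edgeR adjusted p of 0.00184. Without libraries 19 and 21 the log2 fold change was 0.96 and Mindy4 was not called (edgeR adjusted p = 0.0624). It was higher by 1.24 in mean log2 CPM within the first run of library numbers and by 0.71 within the second. All 5 libraries of day 12 lay below every WT library of day 3 (2.31 to 2.66) and day 6 (2.29 to 2.46), and the mean at day 21 was 2.78 ± 0.35 (SD, n = 5). In HNKO liver the log2 fold change over the same days was 0.44 (SE 0.17), or 0.27 in mean log2 CPM within the second run of library numbers, which holds all 3 HNKO libraries of day 21 and 3 of the 6 of day 12, and the difference between the genotypes was not called (interaction of -0.60, SE 0.23, edgeR adjusted p = 0.9998). When the spread was estimated from the 10 libraries alone, the adjusted p was 0.275 and 0 genes were called, with 2267 at an unadjusted p under 0.05.

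Among the genes next in order of p-value, those given here were chosen after their values were seen, differed by less than Mindy4, and were not called. B3gat3 encodes the glucuronyltransferase that completes the linker of glycosaminoglycans to their core proteins. Its log2 CPM was 5.11, 5.34, 4.80, 4.81, and 5.15 at day 12 and 4.45, 4.58, 4.41, 4.44, and 4.63 at day 21. The groups did not overlap, and the log2 fold change was -0.56 (SE 0.10, edgeR adjusted p = 0.0583). Anp32a, an acidic nuclear phosphoprotein known as an inhibitor of protein phosphatase 2A, had 7.17, 7.64, 6.96, 6.80, and 7.11 at day 12 and 6.32, 6.30, 6.42, 5.82, and 6.65 at day 21. Its groups were apart as well, with a log2 fold change of -0.84 (SE 0.18, edgeR adjusted p = 0.0901). In HNKO liver Anp32a had a log2 fold change of -0.79 (SE 0.21) over the same days, but the mean log2 CPM differed by -0.38 within the second run of library numbers and by -0.75 between the second and the first run at day 12. Alg6, a glucosyltransferase that builds the N-glycan precursor in the endoplasmic reticulum, had 3.23, 3.30, 3.33, 3.55, and 3.75 at day 12 and 3.996, 3.87, 4.25, 4.04, and 3.76 at day 21. The lowest library of day 21 barely cleared the highest of day 12, and the log2 fold change was 0.55 (SE 0.12, edgeR adjusted p = 0.0997).

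Further genes with small p-values were chosen in the same way, and 0 of them were called with all libraries. Srp54a, a subunit of the signal recognition particle, is left without values because 70.4% of its 51-base stretches are shared, mainly with its copies Srp54b and Srp54c. Slc40a1 encodes ferroportin, the iron exporter of Kupffer cells and hepatocytes, and had a log2 CPM of 7.65, 7.88, 7.87, 8.06, and 7.87 at day 12 and 8.14, 8.73, 8.67, 8.39, and 8.14 at day 21. The groups did not overlap, with a log2 fold change of 0.56 (SE 0.13, edgeR adjusted p = 0.104), and it was called with the run of library numbers as a covariate (0.57, SE 0.13, edgeR adjusted p = 0.0270). Pdcl3, a phosducin-like partner of the chaperonin CCT, had a log2 fold change of -0.57 (SE 0.11) with overlapping groups. Tifa, an adaptor of TRAF6 signalling to NF-kappaB, had 0.68 (SE 0.15) with overlapping groups, since library 16 stood at 4.47 and the other 4 libraries of day 12 at 3.59 to 3.81. Tymp, thymidine phosphorylase, had -0.62 (SE 0.13) with groups apart, but 40.6% of the 51-base stretches of its transcripts are shared with other genes, mainly Sco2 and Ncaph2, which overlap it. Without library 16, B3gat3 (-0.62), Anp32a (-0.89), Pdcl3 (-0.55), Tymp (-0.63), and Tifa (0.85) had an adjusted p under 0.05, for Tifa with the outlying library itself left out, whereas Alg6 (0.52, edgeR adjusted p = 0.0698) and Slc40a1 (0.56, edgeR adjusted p = 0.0872) did not.

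**Figure D2:**
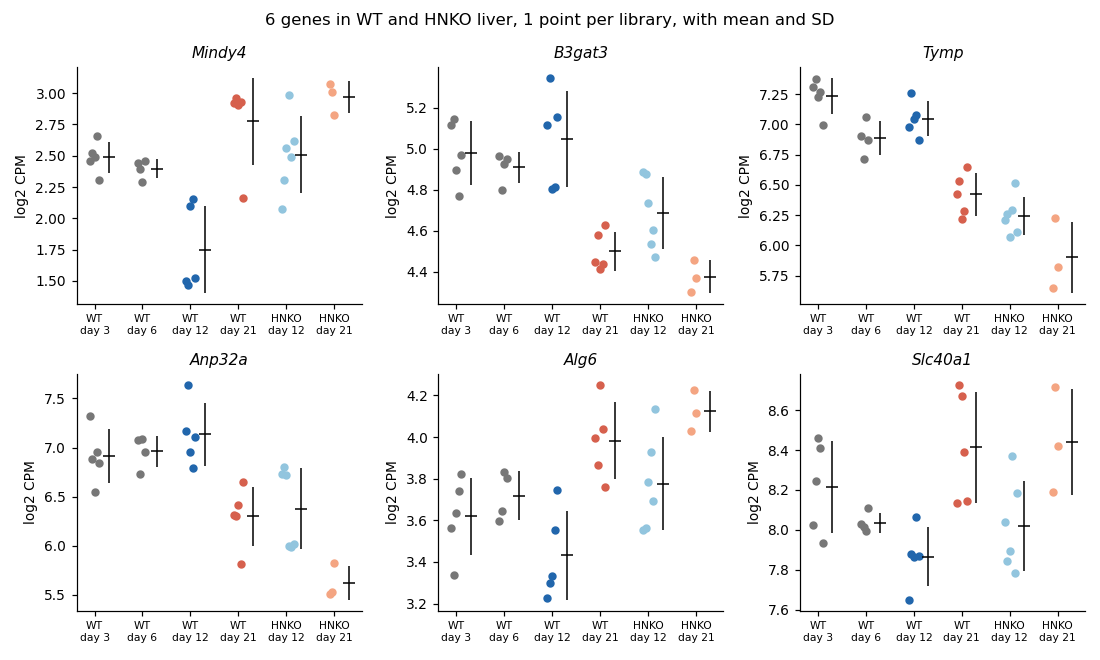
Each panel plots log2 CPM (vertical axis) of 1 gene in WT liver at days 3, 6, 12, and 21 and in HNKO liver at days 12 and 21 (horizontal axis), with 1 point per library and the mean and SD per group. Mindy4 dips at WT day 12 (mean 1.75) below WT days 3 and 6 (2.49 and 2.40), and B3gat3, Tymp, and Anp32a are lower at day 21 than at day 12 in all WT libraries.

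Core clock genes are shown with the sequence before their start because they moved together across the libraries. RefSeq promoters of GRCm38.p6 were searched in the 250 bases before each start for the E-box CACGTG, the D-box TTATGTAA, and the Rev-erb and ROR element TAGGTCA, on both strands. Of the 22 core clock genes, 17 had an entry, and 5 of these (29.4%) held the E-box, against 6.02% of all RefSeq promoters. The D-box was in 1 (Per3) and the TAGGTCA element in 1 (Nfil3), against 0.819% and 2.23% of all promoters. A match is a description of letters and not a measured site. Of the 17 entries, 7 held any of these motifs. Dbp, Arntl, Npas2, and Clock, in which library 16 also differed strongly from the other libraries of day 12, had an entry with 0 matches. The promoters below were chosen among those with a match. They belong to 3 genes with a large difference between library 16 and the other libraries of day 12 and to Per1. Matches are in capitals, and bases that lie in an annotated exon are left out. They are Per3 at chr4:151044666-151044915 (minus strand), Ciart at chr3:95882252-95882478 (minus strand), Bhlhe41 at chr6:145865559-145865670 (minus strand), and Per1 at chr11:69098699-69098947 (plus strand).
Per3: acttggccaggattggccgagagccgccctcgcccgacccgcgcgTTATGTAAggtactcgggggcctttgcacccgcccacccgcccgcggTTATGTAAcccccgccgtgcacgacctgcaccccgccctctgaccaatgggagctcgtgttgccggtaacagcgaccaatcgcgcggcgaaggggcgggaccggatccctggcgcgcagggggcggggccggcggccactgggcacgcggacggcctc
Ciart: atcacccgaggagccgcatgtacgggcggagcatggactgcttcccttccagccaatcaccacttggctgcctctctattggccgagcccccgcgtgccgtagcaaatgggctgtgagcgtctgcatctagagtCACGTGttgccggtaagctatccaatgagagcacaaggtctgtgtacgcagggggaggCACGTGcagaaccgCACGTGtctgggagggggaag
Bhlhe41: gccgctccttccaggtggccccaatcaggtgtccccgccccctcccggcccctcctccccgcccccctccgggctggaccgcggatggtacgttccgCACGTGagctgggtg
Per1: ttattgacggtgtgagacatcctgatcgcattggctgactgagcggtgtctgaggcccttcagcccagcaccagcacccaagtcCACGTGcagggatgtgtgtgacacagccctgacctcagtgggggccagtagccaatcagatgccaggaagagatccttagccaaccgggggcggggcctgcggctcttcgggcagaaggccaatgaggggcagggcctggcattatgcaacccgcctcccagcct
Ciart holds 3 E-boxes, 116, 58, and 44 bases before its start, and Per3 holds 2 D-boxes, 205 and 158 bases before its start.

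Among the 22 core clock genes, 0 were called between the days with all libraries. At an unadjusted p under 0.05 were 8 of them, 4 higher and 4 lower, against 5.61% and 6.81% of all genes. The groups did not overlap for 1 (Nr1d1), against 2.13% of all genes. Library 16 lay outside the other 4 libraries of day 12 for 21 of the 22 genes, and for 19 it lay beyond both these 4 and all 5 libraries of day 21. The other 4 libraries of day 12 did not overlap with day 21 for 16 genes, 12 of them higher at day 21 and 4 lower, against 2.99% and 2.42% of all genes. Library 16 was singled out from such values, so these counts describe the libraries and are no test. The same holds for the adjusted p-values of clock and clock output genes that are given without library 16. A clock score, the mean standardized level of Dbp, Tef, Nr1d1, Nr1d2, Per3, and Ciart minus that of Arntl, Npas2, Clock, and Nfil3, was 3.57 in library 16 and between -2.76 and -1.72 in the other 4 libraries of day 12. It was between 0.89 and 2.29 at day 21, between -1.02 and 2.42 at day 12 in HNKO liver, and between -2.44 and 2.86 at day 6 in WT liver.

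The D-box factors and Per3 are given first. Dbp had a log2 CPM of 3.20, 2.78, 7.51, 3.05, and 1.57 in libraries 14, 15, 16, 33, and 34 of day 12 and of 6.37, 6.34, 6.58, 5.79, and 5.98 at day 21. Library 16 was the highest of all 10 libraries and the other 4 of day 12 were the lowest. The log2 fold change was 0.86 (SE 0.80) with all libraries and 3.48 (SE 0.75, edgeR adjusted p = 0.0277) without library 16. Dbp shares 16.2% of its 51-base stretches with Sphk2, which overlaps it on the opposite strand. Per3, a Period family member, had 3.69, 3.16, 7.42, 3.56, and 2.88 at day 12 and 6.67, 6.47, 7.21, 6.16, and 6.16 at day 21. Its log2 fold change was 1.19 (SE 0.70) with all libraries and 3.24 (SE 0.64, edgeR adjusted p = 0.0172) without library 16. Tef had 5.67, 5.50, 8.36, 6.30, and 5.25 at day 12 and 7.56, 7.84, 8.04, 7.38, and 7.26 at day 21. Again library 16 was the highest and the other 4 the lowest, with a log2 fold change of 0.89 (SE 0.49) with all libraries and 1.91 (SE 0.45, edgeR adjusted p = 0.0483) without library 16. Hlf, the third PAR-bZIP factor, differed less, with 5.59 to 5.90 in the other 4 libraries of day 12, 6.62 in library 16, and 5.91 to 6.23 at day 21.

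Most repressors of the E-box arm followed the same order of libraries, and Cry1 did not. Bhlhe41 (Dec2) had -0.68, -0.66, 2.38, -0.32, and -1.98 at day 12 and 2.18, 2.29, 2.34, 1.81, and 1.90 at day 21. The 4 low libraries rest on 6 to 24 counts, and the log2 fold change was 1.65 (SE 0.69) with all libraries and 3.07 (SE 0.71, edgeR adjusted p = 0.0458) without library 16. Cry2 had 4.82, 4.82, 6.03, 5.05, and 4.61 at day 12 and 5.67, 5.62, 5.82, 5.60, and 5.60 at day 21, with a log2 fold change of 0.50 (SE 0.21) and, without library 16, of 0.83 (SE 0.19, edgeR adjusted p = 0.0483). Cry1 had 2.28, 2.79, 3.25, 2.93, and 3.01 at day 12 and 2.28, 2.56, 2.19, 2.61, and 2.07 at day 21, so that all 5 libraries of day 21 lay below 4 of the 5 of day 12. Per1 had 3.62, 4.29, 6.27, 4.61, and 4.56 at day 12 and 5.26, 5.52, 5.09, 5.39, and 5.90 at day 21, and Per2 had 3.98, 3.47, 6.47, 3.62, and 3.81 at day 12 and 5.10, 5.001, 5.24, 4.77, and 5.20 at day 21. For both, the other 4 libraries of day 12 lay below day 21 and library 16 above it, with log2 fold changes without library 16 of 1.14 (SE 0.55) and 1.34 (SE 0.43), neither of them called. Ciart (Chrono), a further repressor of the activators, had 0.04, -1.05, 5.42, -0.02, and -0.56 at day 12 and 2.58, 2.72, 2.97, 1.35, and 1.74 at day 21. Library 16 set the group mean of Ciart in the fit, where the log2 fold change was -0.77 (SE 1.03) with all libraries and 2.84 (SE 1.05) without it, a change of sign. Bhlhe40 (Dec1) had 7.64 to 7.76 in the other 4 libraries of day 12, 8.35 in library 16, and 7.79 to 8.34 at day 21.

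Activators and Nfil3 had the mirror pattern. Arntl had 4.16, 5.02, 1.27, 4.28, and 4.69 at day 12 and 2.13, 1.89, 1.56, 2.67, and 3.15 at day 21. Library 16 was the lowest of the 10 libraries and the other 4 of day 12 were the highest, and the log2 fold change was -1.93 (SE 0.62, edgeR adjusted p = 0.202). Npas2 had 2.50, 3.06, -1.30, 2.60, and 3.26 at day 12 and 0.46, -0.17, -0.62, -0.13, and 0.82 at day 21, with a log2 fold change of -2.54 (SE 0.77, edgeR adjusted p = 0.192). Clock had 6.84, 6.92, 5.20, 6.95, and 6.96 at day 12 and 6.26, 6.35, 5.96, 6.47, and 6.36 at day 21. Its range was narrower and its order of libraries the same. Nfil3 had 4.14, 4.83, 2.49, 4.19, and 4.46 at day 12 and 2.66, 3.86, 3.19, 3.89, and 3.52 at day 21. Without library 16 the log2 fold changes of Arntl, Npas2, Clock, and Nfil3 were -2.22, -2.84, -0.63, and -0.95, and 0 of these 4 were called.

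The nuclear receptors are given next. Nr1d1 (Rev-erb alpha) had 5.93, 6.11, 6.41, 5.86, and 5.56 at day 12 and 6.86, 6.43, 6.68, 6.79, and 7.18 at day 21. The groups did not overlap, although the lowest library of day 21 barely cleared library 16, and the log2 fold change was 0.81 (SE 0.26, edgeR adjusted p = 0.204). Nr1d2 (Rev-erb beta) had 6.38, 6.39, 7.68, 6.70, and 6.20 at day 12 and 7.29, 7.40, 7.52, 7.34, and 7.26 at day 21, with a log2 fold change of 0.59 (SE 0.25). Without library 16 the log2 fold changes were 0.93 (SE 0.28) for Nr1d1 and 0.93 (SE 0.23) for Nr1d2, and 0 of these 2 were called. Rora, which competes with the Rev-erb receptors, had a mean of 7.25 on both days, with SDs of 0.14 and 0.06 (n = 5). The kinases Csnk1d and Csnk1e, which act on Per proteins, had log2 fold changes of 0.14 (SE 0.09) and -0.0049 (SE 0.13).

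**Figure D3:**
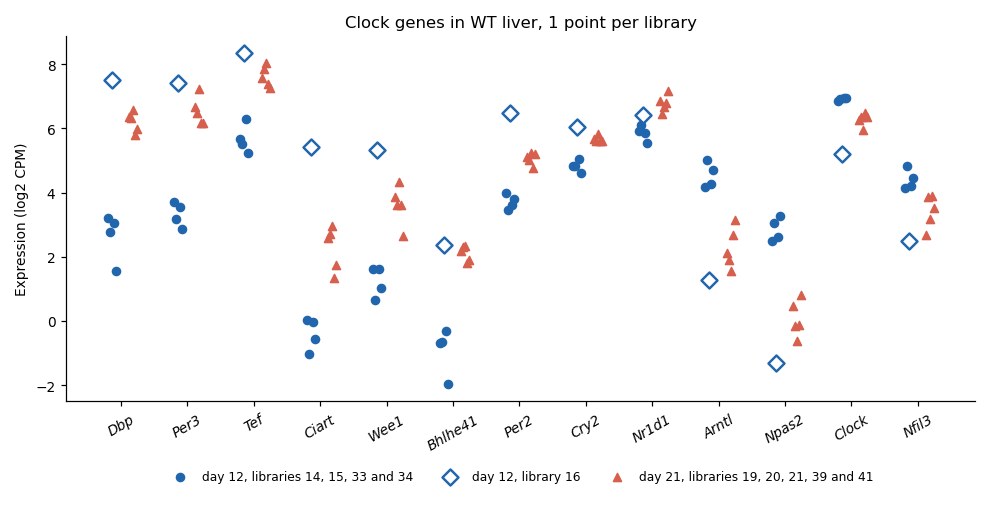
Log2 CPM (vertical axis) is plotted for 13 clock and clock output genes (horizontal axis) in WT liver, with 1 point per library and library 16 of day 12 marked separately from the other 4 libraries of day 12 and the 5 of day 21. For Dbp, library 16 is at 7.51, the other 4 libraries of day 12 at 1.57 to 3.20, and day 21 at 5.79 to 6.58, and the order is reversed for Arntl, Npas2, Clock, and Nfil3.

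Output genes of the clock followed in part. Of 16 clock output genes, 0 were called with all libraries, and 1, Wee1, had an adjusted p under 0.05 without library 16, which was its outlying library. Wee1, the kinase that holds back entry into mitosis, had 1.61, 0.65, 5.33, 1.63, and 1.03 at day 12 and 3.85, 3.63, 4.33, 3.62, and 2.66 at day 21. Its log2 fold change was 0.42 (SE 0.61) with all libraries and 2.46 (SE 0.49, edgeR adjusted p = 0.0172) without library 16. The most abundant members were Rgs16, a regulator of G protein signalling, with 9.09 ± 0.58 and 8.50 ± 0.54 log2 CPM at day 12 and day 21, and Upp2, a uridine phosphorylase, with 8.004 ± 1.10 and 8.75 ± 0.27 (SD, n = 5). The list median was -0.25 with all libraries and 0.24 without library 16, against 0.01 over all tested genes in both fits.

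Nampt, the enzyme that turns nicotinamide into nicotinamide mononucleotide and the gene deleted in HNKO hepatocytes, is itself driven by the clock in liver. It had a log2 CPM of 6.11, 6.12, 7.24, 5.89, and 5.90 at day 12 and 6.26, 6.52, 6.65, 6.44, and 6.43 at day 21. Library 16 was the highest and the other 4 libraries of day 12 the lowest, and the log2 fold change was 0.11 (SE 0.23) with all libraries and 0.45 (SE 0.21, edgeR adjusted p = 0.381) without library 16. Gdap10, an RNA whose annotated span overlaps Nampt on the same strand, had 3.39, 3.49, 4.91, 4.04, and 3.62 at day 12 and 4.65, 5.55, 5.22, 4.92, and 4.58 at day 21, with a log2 fold change without library 16, which lay on the side of day 21, of 1.37 (SE 0.27). Reads of Gdap10 and Nampt may be assigned to either where they overlap.

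Genes outside the clock with an adjusted p under 0.05 without library 16, chosen after their values were seen, included genes in which library 16 lay on the side of day 21. Slc20a1, a sodium-dependent phosphate transporter, had 4.94, 4.95, 6.55, 4.98, and 5.14 at day 12 and 6.56, 6.19, 6.31, 6.32, and 6.43 at day 21. The 4 other libraries of day 12 lay close to each other and apart from all the rest. The log2 fold change of 1.36 (SE 0.24) without library 16 leaves out the outlying library of this gene. Uts2, which encodes the vasoactive peptide urotensin 2, had 0, 0, 23, 0, and 0 counts at day 12 and 14, 8, 24, 12, and 8 counts at day 21. Uts2 lies at chr4:150997097-151001810 (plus strand), next to the clock gene Per3 at chr4:151003652-151044665 (minus strand), which is transcribed toward it. Whether counting used the strand is not stated, and whether reads from Per3 entered these few counts was not tested. Cyp7a1, the rate-limiting enzyme of bile acid synthesis, had 8.45 in library 16, 5.76 to 6.09 in the other 4 libraries of day 12, and 6.58 to 7.80 at day 21, and it was not called in either fit.

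Metabolic gene lists had 0 called members with all libraries and differed in their medians. The 18 genes of de novo lipogenesis had the lowest median, -0.61, with 0 of them higher and 1 lower at an unadjusted p under 0.05. Without library 16 the median was -0.79, with 8 lower and 0 higher at that p, against 6.09% of all genes lower and 5.93% higher in that fit. Like the calls without library 16, these counts are descriptions and support no difference. Agpat2, an acyltransferase of triglyceride and phospholipid synthesis, was at 6.06 log2 CPM in library 16, its outlying library, at 7.43 to 7.94 in the other 4 libraries of day 12, and at 6.66 to 7.14 at day 21, and its log2 fold change without library 16 was -0.81 (SE 0.16). Scd1, the delta-9 desaturase, had a log2 CPM of 13.83, 15.52, 13.53, 13.01, and 15.56 at day 12 and 13.56, 13.33, 11.72, 13.52, and 15.10 at day 21. Fasn, fatty acid synthase, had 11.84, 13.13, 10.71, 10.97, and 13.59 at day 12 and 11.42, 10.04, 10.28, 10.79, and 12.98 at day 21. Libraries 15 and 34 of day 12 and library 41 of day 21 were the 3 highest for both genes, and the groups overlapped over most of their range. The median of the list was -0.74 within the first run of library numbers and -0.15 within the second.

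The 20 genes of the glucocorticoid and fasting response had a median of -0.45, with 5 lower and 0 higher at an unadjusted p under 0.05, against 6.81% and 5.61% of all genes. The most abundant of them were Pck1, phosphoenolpyruvate carboxykinase of gluconeogenesis, with 11.13 ± 0.45 and 10.88 ± 0.47 log2 CPM at day 12 and day 21, and Tat, tyrosine aminotransferase, with 10.25 ± 0.20 and 9.80 ± 0.34 (SD, n = 5). Members of the list differed in how they sat in library 16. Pdk4, a kinase that inhibits pyruvate dehydrogenase, had 5.14, 5.41, 2.16, 4.50, and 5.14 at day 12 and 3.23, 3.40, 2.95, 4.17, and 2.96 at day 21, with library 16 below day 21 and the other 4 above it. Cited2, a transcriptional coregulator, had 3.97 in library 16 and 3.74 to 4.15 in the other 4 libraries of day 12, against 3.13 to 3.76 at day 21. Pdk4 and Cited2 were chosen after their values were seen.

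Genes of amino acid and glucose handling and of protein folding had shallow medians below that of all genes, and their counts at an unadjusted p under 0.05 stand against 6.81% of all genes lower and 5.61% higher. In urea cycle and amino acid catabolism, 5 of 26 genes were lower and 0 higher at that p, and 3 lower and 0 higher without library 16, with a median of -0.26 in both fits. Cps1, which makes carbamoyl phosphate for the urea cycle, had 12.90 ± 0.24 and 12.59 ± 0.27, and Mat1a, the liver methionine adenosyltransferase, 11.79 ± 0.23 and 11.54 ± 0.16 log2 CPM at day 12 and day 21 (SD, n = 5). In glucose and glycogen, 5 of 19 were lower and 0 higher, with a median of -0.24. Of 24 heat shock and chaperone genes, 6 were lower and 0 higher, and 9 lower and 0 higher without library 16, with a median of -0.23 with all libraries. Its most abundant members were Hsp90b1, with 9.73 ± 0.22 and 9.35 ± 0.22, and Calr, with 9.42 ± 0.25 and 8.96 ± 0.26 log2 CPM (SD, n = 5), both folding factors of the endoplasmic reticulum. For the latter list the medians within the 2 runs of library numbers were -0.24 and -0.26.

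NAD metabolism is the pathway that the HNKO model targets. In WT liver, 6 of its 22 genes were at an unadjusted p under 0.05, 3 higher and 3 lower at day 21, against 5.61% and 6.81% of all genes. The median was 0.02, and 0 were called. Without library 16 there were 5 higher and 4 lower, against 5.93% and 6.09% of all genes, with 0 called, and groups that did not overlap in 3 higher and 2 lower genes, against 2.99% and 2.42%. Haao, a dioxygenase of de novo NAD synthesis from tryptophan and with Tdo2 the most abundant member, had a log2 CPM of 9.04, 9.28, 9.12, 8.92, and 8.98 at day 12 and 8.83, 8.40, 8.63, 8.36, and 8.85 at day 21. The groups did not overlap, and library 16 lay among the others. The log2 fold change was -0.45 (SE 0.17, edgeR adjusted p = 0.287), and in HNKO liver it was -0.46 (SE 0.20), or -0.41 in mean log2 CPM within the second run of library numbers. Parp1, an NAD-consuming DNA repair enzyme named here after its values were seen, had 5.76, 5.85, 6.08, 5.72, and 5.89 at day 12 and 5.63, 5.64, 5.68, 5.43, and 5.70 at day 21, also without overlap, with a log2 fold change of -0.25 (SE 0.06, edgeR adjusted p = 0.125). With the run of library numbers as a covariate, Parp1 was called (-0.25, SE 0.06, edgeR adjusted p = 0.0311), the 1 gene of this list that was. Tdo2, the first enzyme of tryptophan breakdown, had 9.79 ± 0.45 and 9.64 ± 0.21 (SD, n = 5). The 3 higher genes, named after their values were seen, were the NAD synthetase Nadsyn1 (0.20, SE 0.08), the adenylyltransferase Nmnat3 (0.25, SE 0.12), and the NAD-dependent deacetylase Sirt1 (0.21, SE 0.09), and the third lower gene was Acmsd (-0.75, SE 0.34), which diverts tryptophan breakdown away from NAD. The groups overlapped in these 4 genes.

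The other pathway lists described had 0 called genes with all libraries. Their counts at an unadjusted p under 0.05 stand against 5.61% of all genes higher and 6.81% lower. Acute phase proteins had 0 of 22 genes at an unadjusted p under 0.05 and a median of -0.04, with Fga, a fibrinogen chain, at 12.63 ± 0.20 and 12.37 ± 0.33 log2 CPM (SD, n = 5). Fatty acid oxidation and PPARA targets had a median of 0.05, with 0 of 24 higher and 1 lower, cholesterol synthesis -0.14, with 1 of 25 higher and 0 lower, and bile acid synthesis and transport -0.02, with 2 of 20 higher and 1 lower. Interferon-stimulated genes had a median of 0.03, with 0 of 30 higher and 3 lower, and cell cycle genes 0.14, with 0 of 32 higher and 2 lower. Immediate early genes had a median of 0.22 with all libraries and 0.45 without library 16, and MHC class II genes 0.33 and 0.32, with 0 of 7 at an unadjusted p under 0.05. Xenobiotic cytochromes P450 had a median of -0.02, and Cyp3a11, a main drug-metabolizing enzyme, had 9.69, 9.61, 9.80, 9.75, and 9.13 at day 12 and 9.97, 10.39, 10.72, 10.56, and 9.44 at day 21 (log2 fold change 0.67, SE 0.21, edgeR adjusted p = 0.196). Library 41 kept the groups of Cyp3a11 from lying apart. Collagens and matrix enzymes had 0 of 20 genes at an unadjusted p under 0.05 and a median of -0.18.

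**Figure D4:**
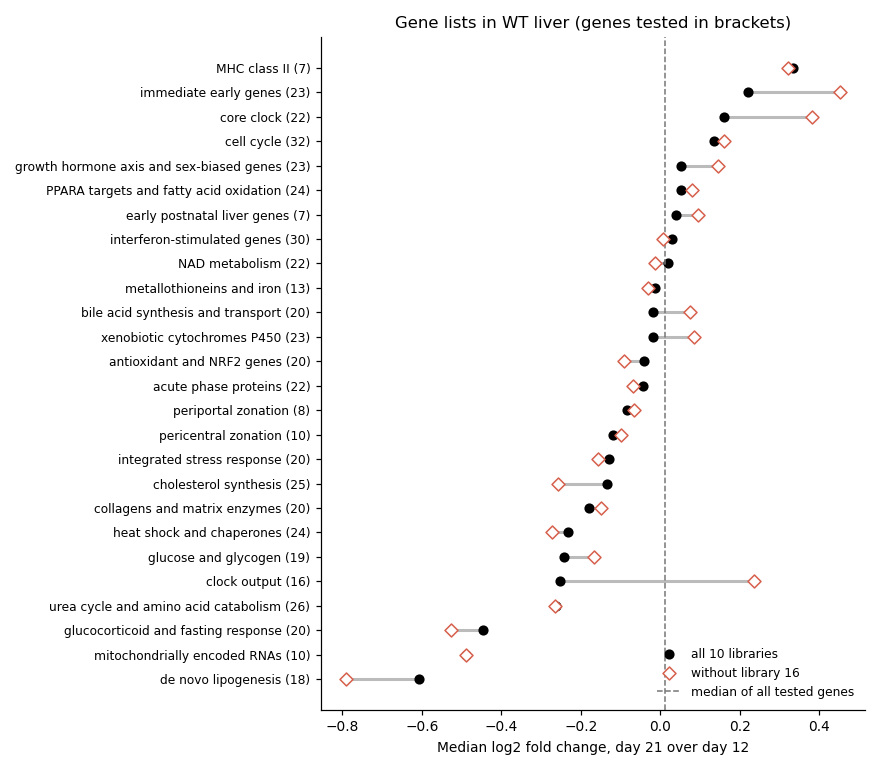
Median log2 fold change of day 21 over day 12 (horizontal axis) is plotted for 26 pathway lists (vertical axis, genes tested in brackets) with all 10 WT libraries (filled) and without library 16 (open), with a dashed line at the median of all tested genes. De novo lipogenesis is lowest at -0.61 and -0.79, and clock output moves from -0.25 to 0.24 when library 16 is left out.

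Markers of other cell types were compared by their summed CPM. Hepatocyte markers summed to 133832 to 171995 CPM at day 12 and to 115275 to 175019 at day 21, far above every other cell type list, and the groups overlapped. Adipocyte markers summed to 18.2, 7.57, 5.21, 11.3, and 8.05 CPM at day 12 and to 5.87, 4.75, 4.23, 6.49, and 5.18 at day 21. Libraries 14 and 33 were highest, and Adipoq, which defines adipocytes, had 75, 3, 8, 45, and 0 counts at day 12 and 1, 0, 2, 4, and 0 at day 21. Mesothelial markers were likewise highest in libraries 14 and 33, at 9.51 and 5.76 CPM, against 1.58 to 2.85 in the other libraries of day 12 and 0.309 to 4.204 at day 21. Smooth muscle markers summed to 62.4 CPM in library 14, to 13.3 to 18.6 in the other libraries of day 12, and to 7.80 to 14.3 at day 21. Of these 4 markers, 3 were lower and 0 higher at an unadjusted p under 0.05, against 6.81% and 5.61% of all genes. Without libraries 14 and 33, 83 genes were called, 19 higher and 64 lower, Mindy4 among them. The part of these cells in other differences was not tested.

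Skeletal muscle genes were high in 2 libraries of day 21. A list of 12 such genes, added after the values were seen, had 11 that passed the filter, and they summed to 69.0 and 168 CPM in libraries 19 and 21, against 1.24 to 1.45 in the other 3 libraries of day 21 and 1.003 to 3.11 at day 12. Acta1, skeletal muscle actin, had a log2 CPM of -3.20, -2.17, -1.14, -3.29, and -3.80 at day 12 and 3.71, -2.41, 5.13, -3.80, and -3.17 in libraries 19, 20, 21, 39, and 41 of day 21. Myh1, a fast myosin heavy chain, had -2.46, -1.05, -2.58, -3.80, and -3.29 at day 12 and 4.44, -3.17, 5.42, -3.80, and -3.80 at day 21. Outside the list, the giant sarcomere protein titin (Ttn) had 1.98, 2.64, 2.19, 1.72, and 1.85 at day 12 and 7.27, 2.34, 8.66, 1.97, and 2.15 at day 21. In all 3 genes libraries 19 and 21 were far above the other 8, whose ranges overlapped between the days. The log2 fold changes were 6.55 (SE 2.25) for Acta1, 6.70 (SE 2.36) for Myh1, and 4.76 (SE 1.58) for Ttn, and they rest on these 2 libraries, since without both they were -0.86, -2.80, and 0.05. Of the 11 genes, 7 were higher and 0 lower at an unadjusted p under 0.05, against 5.61% and 6.81% of all genes, and 0 were called. In HNKO liver the sum was 935, 160, and 16.4 CPM in libraries 11, 13, and 32 of day 12 and 670 in library 37 of day 21, against 1.05 to 2.03 in the other libraries of these days. The part of skeletal muscle RNA in other differences was not tested.

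Blood and immune markers gave no called gene. Erythroid markers summed to 186, 100.3, 109, 105, and 133 CPM at day 12 and to 53.5, 68.5, 31.1, 66.4, and 103 at day 21. Only library 41 of day 21 reached the range of day 12. Of the 6 markers, 1 was lower and 0 higher at an unadjusted p under 0.05, against 6.81% and 5.61% of all genes. Kupffer cell markers summed to 327 to 647 CPM at day 12 and to 389 to 624 at day 21, and B cell markers to 11.1 to 26.4 and 10.5 to 14.6. T and NK cell markers summed to 6.13 to 9.22 and 5.83 to 10.99, and neutrophil markers to 0.478 to 1.24 and 0.706 to 1.85. Cholangiocyte markers were at 83.8 to 98.2 CPM at day 12 and at 100.8, 102.8, 107.5, 112.6, and 85.2 in libraries 19, 20, 21, 39, and 41 of day 21. Only library 41 reached the range of day 12. The median of that list was -0.36, with 1 of 8 genes higher and 1 lower at an unadjusted p under 0.05. Stellate cell markers were at 535 to 624 and 505 to 595 CPM, and sinusoidal endothelial markers at 716 to 906 and 716 to 844. Of the 10 sinusoidal markers, 3 were lower and 0 higher at that p, against 6.81% and 5.61% of all genes. Pancreatic acinar markers, of which 4 of 9 passed the filter, summed to 10.4 to 25.9 and 9.58 to 19.7. In all of these the days overlapped.

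**Figure D5:**
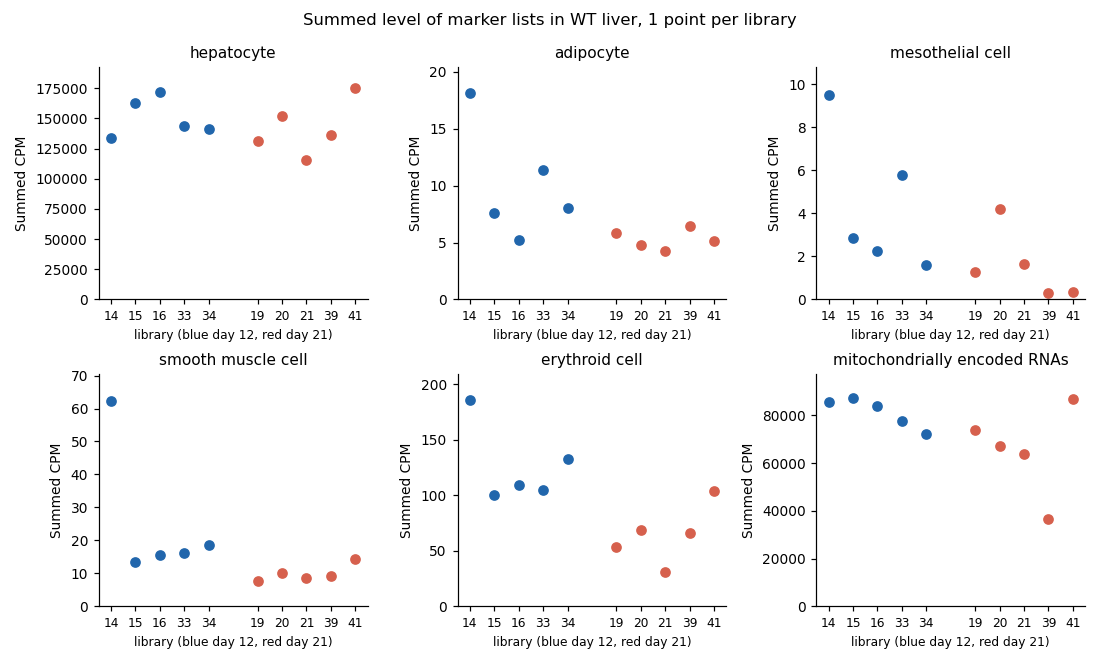
Summed CPM (vertical axis, from 0) of 5 cell type marker lists and of the mitochondrially encoded RNAs is plotted for each WT library (horizontal axis), day 12 on the left and day 21 on the right. Library 14 is highest for adipocyte, mesothelial, smooth muscle, and erythroid markers, and library 39 is lowest for mitochondrially encoded RNAs at 36589 CPM.

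Mitochondrially encoded RNAs had a median log2 fold change of -0.49 over the 10 of 15 that passed the filter, with 4 lower and 0 higher at an unadjusted p under 0.05, against 6.81% and 5.61% of all genes, and 0 called. Without library 16 there were 2 lower and 0 higher. mt-Co2, mt-Co3, mt-Atp6, mt-Atp8, and mt-Nd4l were not tested and are left out of the sum, which includes mitochondrial rRNA. Over the 10 tested RNAs the sum was 72050 to 87481 CPM at day 12. It was 73738, 67387, 64010, 36589, and 86753 CPM in libraries 19, 20, 21, 39, and 41 of day 21. The most abundant, the rRNA mt-Rnr2, had 15.38 to 15.47 log2 CPM at day 12 and 15.46, 15.35, 15.24, 13.93, and 15.51 at day 21, so that library 39 alone was low. The libraries were depleted of rRNA before sequencing, and how far that set the mitochondrial rRNA of library 39 was not tested. mt-Co1, a subunit of cytochrome c oxidase, had 14.23, 14.28, 14.002, 13.83, and 13.68 at day 12 and 13.62, 13.59, 13.41, 13.54, and 14.20 at day 21, with library 41 the outlying library. mt-Nd6, the complex I subunit encoded on the light strand, had 8.88, 8.98, 9.28, 8.30, and 8.08 at day 12 and 7.72, 7.27, 7.62, 7.12, and 8.21 at day 21. Its log2 fold change was -1.13 (SE 0.31, edgeR adjusted p = 0.160), and the mean differed by -1.51 within the first run of library numbers and by -0.53 within the second. With the run as a covariate mt-Nd6 was called (-1.01, SE 0.22, edgeR adjusted p = 0.0256), the 1 mitochondrially encoded gene that was. The median of the list was -0.85 within the first run and -0.27 within the second. Its annotated span overlaps that of mt-Nd5, on the opposite strand, by 14 bases, and 0 of its 51-base stretches were shared with another gene. Whether counting used the strand is not stated.

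Early postnatal liver genes were read as a check of the age in the labels. Of 11 such genes, 7 passed the filter, and Igf2, Dlk1, Lin28b, and Zim1 did not. Afp, which fetal and neonatal hepatocytes express highly, was at 2.64 ± 0.38 and 3.05 ± 0.22 log2 CPM, against 16.56 ± 0.20 and 16.46 ± 0.32 for Alb (SD, n = 5). Peg3 was at 4.57 ± 0.35 and 3.97 ± 0.23. The list median was 0.04, with log2 fold changes from -1.24 to 1.56, and 0 genes were called. At an unadjusted p under 0.05, 2 of the 7 were lower at day 21 and 0 higher, against 6.81% and 5.61% of all genes.

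The same days were compared in HNKO liver, with 6 libraries of day 12 and 3 of day 21, which share no library with the WT groups. All 3 libraries of HNKO day 21 belong to the second run of library numbers, against 3 of the 6 of day 12, so that day and run are partly confounded, and differences within the second run are given beside the fitted ones. With the run as a covariate, 0 genes were called. With edgeR, 0 genes were called and 1752 (8.63%) were at an unadjusted p under 0.05, and DESeq2 called 15. For the interaction of genotype and day, edgeR called 0 genes and 637 (3.14%) were at an unadjusted p under 0.05, and 0 were called by DESeq2 as well, so no gene, clock genes included, was shown to change differently between the genotypes. The core clock list had a median of 0.01 in HNKO liver, with 0 of 22 genes at an unadjusted p under 0.05, and 0 of the 22 interactions were at that p. Dbp had a log2 fold change of 0.13 (SE 0.88) in HNKO liver, where it ranged from 3.64 to 6.69 log2 CPM at day 12 and from 4.997 to 6.28 at day 21, and its mean differed by 0.83 within the second run. The de novo lipogenesis list had a median of -0.34 in HNKO liver (-0.40 within the second run) and the mitochondrially encoded RNAs one of -0.87, with 6 of 10 lower at an unadjusted p under 0.05, against 5.05% of all genes. Within the second run the median of the latter was -0.28, and the median of the second minus the first run at day 12 was -0.98. Their sum was 61578 to 64154 CPM in the first run of HNKO day 12 and 27448 to 50402 in the second, against 20986 to 30439 at day 21, so that the second run of day 12 overlapped day 21. Cell cycle genes, with 0 of 32 higher in WT liver, had 9 of 32 higher in HNKO liver at an unadjusted p under 0.05, against 3.58% of all genes, and a median of 0.63 (0.89 within the second run), and 0 of these 32 interactions were at that p.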

How the data were processed

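The authors depleted rRNA, sequenced 51-base paired reads, aligned them with STAR 2.7.2b to GRCm38, and counted them per gene of GENCODE with featureCounts 1.6.4, and they deposited raw counts without normalization. Strand use in counting is not given in the sources used here. The submitters' notes also name edgeR 3.26.0. Columns that matched no sample numbered 0.

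From these counts, 38 libraries (HNKO day 21 libraries 17 and 18, which the labels give as failing quality control, left out) were fitted with edgeR 4.0.16 (R 4.3.3), with TMM scaling, a low-count filter (minimum count 10, total 15, proportion 0.7), legacy quasi-likelihood tests, 1 mean per genotype and day, and Benjamini-Hochberg adjustment over all tested genes. SEs are those the test statistic implies. The steps were tested on simulated data. Marker and pathway lists (39) were described by counts and medians alone. Depth limits low genes most. Alternatives were DESeq2 1.42.0, other scaling, filters, samples, and covariates, and each library left out.

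The groups, lists, clock score, and tests were chosen with earlier results of these data known. Genes named are called genes, Nampt, the core clock, and the 2 most abundant members of lists with no call, some of which are not reported here. Any other gene (in each list, those given besides these) was chosen after its values were seen. Gene positions are of GENCODE M21 and promoters of RefSeq.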

Additional observations from a re-analysis of the deposited data

Results flagged for a closer look

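Within WT day 12 and WT day 21, 79 named genes were examined for a library whose gap to the nearest of the other 4 exceeded the critical share of 0.71 of the range. Such gaps were found in 26 of 158 groups, 16 of them by library 16 of day 12. Chance gives about 1 in 20 groups, and over all 20297 tested genes 7.03% had one at day 12 and 6.26% at day 21. The named genes include clock genes and others chosen after their values were seen, so their share is not to be read against either. Values are log2 CPM.

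Library 16 was the highest of its group for Tifa (4.47), Slc20a1 (6.55), Dbp (7.51), Per2 (6.47), Per3 (7.42), Ciart (5.42), Wee1 (5.33), Cyp7a1 (8.45), Nampt (7.24), Uts2 (0.23), and Bhlhe40 (8.35). It was the lowest for Arntl (1.27), Npas2 (-1.30), Clock (5.20), Agpat2 (6.06), and Pdk4 (2.16).

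Other libraries of day 12 stood apart for 4 genes. Library 14 was highest for the smooth muscle genes Myh11 (5.04) and Tagln (1.30), library 15 was highest for Nadsyn1 (4.91), an NAD synthetase, and library 34 was lowest for Cyp3a11 (9.13).

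At day 21, library 39 was lowest for Parp1 (5.43), mt-Rnr1 (11.32), and mt-Rnr2 (13.93). Library 41 was lowest for Mindy4 (2.16) and highest for mt-Co1 (14.20), and library 20 was lowest for Afp (2.67).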

How the results depend on the processing

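Between WT day 21 and day 12, 1 gene was called, higher at day 21. The count (higher and lower) was 2 (1 and 1) with RLE size factors, 92 (37 and 55) with DESeq2, 5 (2 and 3) with at least 10 counts in every library, 3 (2 and 1) with only the 19 WT libraries, 10 (5 and 5) with the edgeR 4 computation, and 0 (0 and 0) with only the 2 groups. With the run of library numbers as a covariate it was 241 (73 and 168), with the clock score 1355 (458 and 897), and with both 1011 (333 and 678). It was 1 with no filter beyond 1 count, with robust estimation, and with all 40 libraries. Leaving out each library in turn gave 1 to 70 calls, 1 to 43 higher and 0 to 27 lower, with 70 (43 and 27) without library 16, 23 (5 and 18) without library 33, and 18 (4 and 14) without library 41. Chosen after seeing the data, leaving out library 16 with the run of numbers as a covariate gave 216 (108 and 108), leaving out libraries 14 and 33 gave 83 (19 and 64), and leaving out libraries 19 and 21 gave 1 (1 and 0). Mindy4 was called in each of these settings except the 2 groups alone and without libraries 19 and 21 (0.96, edgeR adjusted p = 0.0624). In HNKO liver, where 0 genes were called, DESeq2 gave 15, all 40 libraries 83, the clock score 5, and leaving out each library 0 to 5, with 2 without library 35 and 5 without library 36. The interaction gave 0 in each setting run.

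Log2 fold changes that changed sign were, with the clock score, Per1 -0.092, Per2 -0.28, Arntl 0.031, Npas2 0.030, Clock 0.21, Cyp7a1 -0.17, Nampt -0.28, Hlf -0.29, Nfil3 0.16, Bhlhe40 -0.043, Pdk4 0.41, and Cdkn1a 0.39. The score is built from clock genes, so that such changes in Arntl, Npas2, Clock, and Nfil3 follow from its construction. With the score and the run of numbers they were Per1 -0.065, Per2 -0.21, Arntl 0.061, Npas2 0.072, Clock 0.18, Cyp7a1 -0.085, Nampt -0.22, Hlf -0.33, Nfil3 0.18, Pdk4 0.52, Cdkn1a 0.47, and Tagln 0.061. Leaving out each library gave -1.10 to 2.84 for Ciart, highest without library 16, and with the run of numbers as well it was 2.50. It gave -0.19 to 0.11 for mt-Rnr1, highest without library 39. Without libraries 14 and 33, Per2 was -0.17, Wee1 -0.14, Nampt -0.088, and Plin1 0.77, and without libraries 19 and 21 Acta1 was -0.86 and Myh1 -2.80. Other causes were not tested.

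No paired analysis was possible because every library has its own number, so the groups share none. The median SE was 0.20 with 5 libraries a day, and the 0 to 30 counts of Uts2, Adipoq, and Bhlhe41 in some libraries limit those genes.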
